A study of Mus musculus with 19 samples.

Results

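Mdfic2 and Gm32592 are 2 genes of mouse chromosome 6 that lie on opposite strands and share exon bases. They were chosen by name, through the GENCODE symbols of GRCm38, for their large rise in endometrium after mating, and they are 2 of the 49089 genes in the deposited counts (17222 of which were tested for differential expression). Their rise from estrus to day 3.5 post-coitum (pc) selected them. So their change from estrus to mating with intact males is given as a description, with no test. Tests were made on comparisons between the other mated groups, on the ratio of the pair within a library and on 1 correlation. That correlation runs over 14 mated libraries, among them those of females mated with intact males.

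Mdfic2, MyoD family inhibitor domain containing 2, belongs to the I-mfa domain family together with Mdfi and Mdfic. Proteins of this family are known as binding partners that restrain transcription factors, among them the myogenic factors of the MyoD group, LEF and TCF factors of the Wnt pathway and Zic proteins, and they also bind Axin and the cyclin T1 subunit of the kinase that releases paused RNA polymerase. Family members have also been described as auxiliary subunits of the PIEZO mechanosensitive channels. Gm32592 is a predicted long non-coding RNA gene of the antisense class, with no known function. The endometrium, the lining of the uterus, passes from estrogen dominance around ovulation to progesterone dominance in the days before implantation.

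RNA was measured by RNA-seq in 19 libraries of 5 groups, named here by the prefixes of their columns. CONT (3 libraries, numbered 1, 2 and 4) came from virgin wild-type C57Bl/6 females at estrus. INT, SVX, SVX_VAS and VAS (4 libraries each) came from wild-type C57Bl/6 females that had mated with Balb/c males and were sampled at day 3.5 pc, and females put to mating were 8 to 14 weeks old. By the study's methods, tissue at estrus was taken late in the evening and tissue at day 3.5 pc at noon. Time of day therefore cannot be told apart from the change between CONT and INT. The INT males were intact. For the other groups the prefixes and the titles name different surgeries: the SVX columns are titled as vasectomised, the SVX_VAS columns as seminal vesicle-deficient and the VAS columns as seminal vesicle-deficient and vasectomised, so no surgery is attached to them below. Each library held a pooled sample of endometrium scraped from the myometrium, with the number of animals in a pool not given in the sources used here, so that p-values measure the spread between pools.

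In the GENCODE annotation of GRCm38, Mdfic2 (ENSMUSG00000090667, protein-coding, also listed as Gm765) lies on the minus strand at chr6:98235708-98342754, and its 4 exons hold 3584 bases. Gm32592 (ENSMUSG00000107902) lies on the plus strand at chr6:98121796-98248611, and its 5 exons hold 3124 bases. The genes run toward each other and end inside one another, and their spans share 12904 bases. Exon 3 of Mdfic2, of 222 bases at chr6:98248011-98248232, lies wholly inside exon 5 of Gm32592 at chr6:98245900-98248611. These shared bases are 6.19% of the exonic bases of Mdfic2 and 7.11% of those of Gm32592. Counting introns too, 2865 exonic bases of Mdfic2 (79.9%) lie inside the span of Gm32592, and 2712 exonic bases of Gm32592 (86.8%) lie inside the span of Mdfic2.

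**Figure D1:**
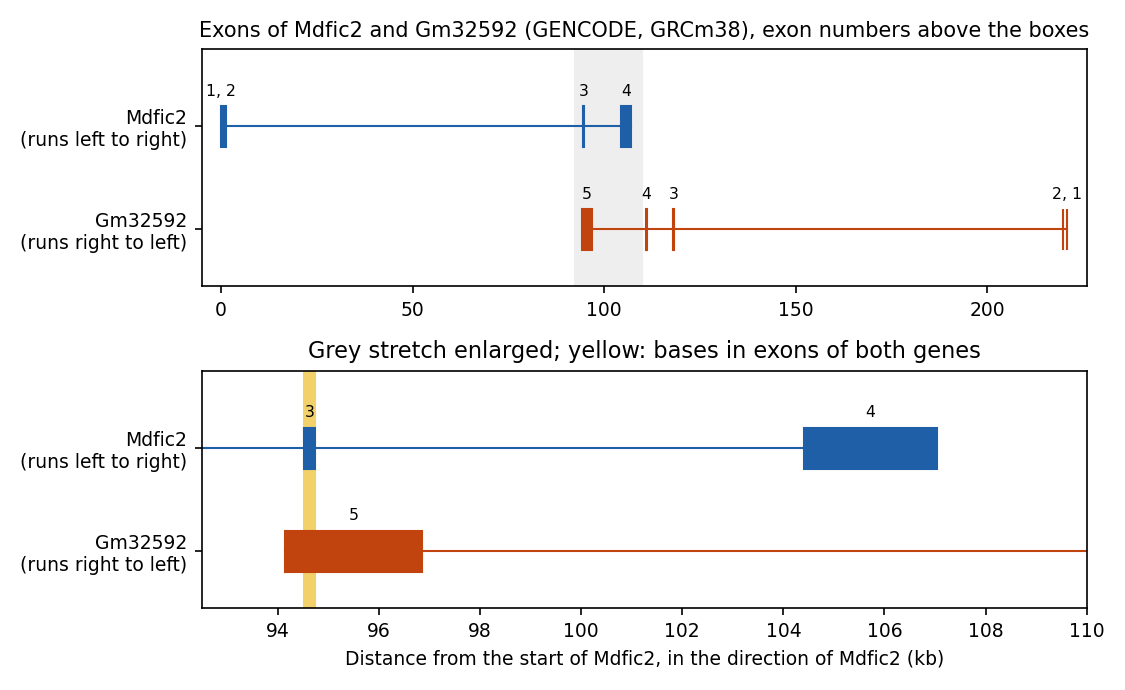
Exons (boxes) and introns (lines) of both genes against the distance in kb from the start of Mdfic2, in the direction in which Mdfic2 is transcribed. The lower panel enlarges the grey stretch, and the yellow band marks the 222 bases that exon 3 of Mdfic2 and exon 5 of Gm32592 share.

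The shared exon is shown because its RNA can be assigned to one gene or the other only by strand. It is coding, and it makes up 39.2% of the 567 coding bases (189 codons) of Mdfic2. The sequence below was read from the GENCODE transcript of Mdfic2, 5′ to 3′ on the minus strand, with exon 3 in capitals and 20 coding bases of each neighbouring exon in lower case. The reverse complement of the capitals occurs in the transcript of Gm32592.
Mdfic2 exon 3: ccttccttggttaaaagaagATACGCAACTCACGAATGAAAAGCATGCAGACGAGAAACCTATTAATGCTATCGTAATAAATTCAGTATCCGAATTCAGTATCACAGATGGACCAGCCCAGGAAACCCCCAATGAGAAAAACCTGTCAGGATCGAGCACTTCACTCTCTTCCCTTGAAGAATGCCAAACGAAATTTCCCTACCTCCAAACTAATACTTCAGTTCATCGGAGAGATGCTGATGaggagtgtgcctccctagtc

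Total counts on genes were 15487788 to 31781270 in CONT, 14201095 to 17420572 in INT, 12661266 to 13799614 in SVX, 13789824 to 20525568 in SVX_VAS and 14040286 to 18258677 in VAS. VAS 2 and VAS 3 stood apart from the other 17 libraries. In those 17 libraries, 290 to 321 of the 409 genes that lie wholly inside exons of opposite-strand genes had counts, at 4004 to 4995 counts per 1000000 counts (CPM), so reads of the 2 strands were told apart there. In VAS 2 and VAS 3, 132 and 136 of these genes had counts, at 210 and 222 CPM. Of 605 genes wholly inside same-strand exons, 0 had counts in any library. So the counts on the 409 genes were assigned by strand, in VAS 2 and VAS 3 too, where they were fewer. The highest count of any gene was 27476 in VAS 2 and 26677 in VAS 3, against 144532 to 235595 in the other libraries. Comparisons and ratios of the pair that rest on VAS 2 and VAS 3 are given with and without them, and why they differ was not tested.

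At estrus both genes were at or near the limit of detection. Mdfic2 had 0, 2 and 1 counts in CONT 1, 2 and 4, that is 0, 0.0718 and 0.0758 CPM (scaled with TMM factors here and below). Gm32592 had 2, 2 and 3 counts in the same libraries, that is 0.119, 0.0718 and 0.227 CPM. A count of 0 allows up to 3 counts, or 0.108 to 0.227 CPM in these libraries, so neither gene was clearly above that limit in any library at estrus. These limits cover counting error only.

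After mating with intact males, Mdfic2 stood at 14.4, 9.83, 16.1 and 22.9 CPM in INT 1 to 4, from 156 to 327 counts. Gm32592 stood at 29.0, 21.05, 35.4 and 49.2 CPM in the same libraries, from 334 to 703 counts. Both genes were lowest in INT 2 and highest in INT 4, and every INT library lay far above every CONT library. The summed counts gave an INT to CONT ratio of 303 for Mdfic2 (exact 95% interval for counting error alone 103 to 1471, from 3 counts at estrus) and of 277 for Gm32592 (134 to 690, from 7 counts). These ratios describe the choice of the genes and support nothing further. In bulk tissue, a change in the number of cells that express a gene and a change in RNA per cell cannot be told apart.

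In the SVX libraries, Mdfic2 was at 17.4, 22.3, 23.6 and 18.8 CPM and Gm32592 at 35.4, 53.8, 43.4 and 43.6 CPM. In the SVX_VAS libraries, Mdfic2 was at 23.6, 28.1, 22.4 and 19.3 CPM and Gm32592 at 50.4, 52.8, 50.5 and 45.4 CPM. The levels of each gene in these 8 libraries overlapped between the groups. The VAS libraries were unlike each other: Mdfic2 was at 6.37, 1.21, 1.22 and 21.96 CPM and Gm32592 at 13.4, 36.1, 30.0 and 43.7 CPM. VAS 4 was within the range of SVX and SVX_VAS for Mdfic2, VAS 1 was low for both genes, and VAS 2 and VAS 3 were low for Mdfic2 while their Gm32592 lay inside the range of the INT libraries.

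The group means of Mdfic2 were 0.0492 ± 0.0427 CPM (SD, n = 3) in CONT, 15.8 ± 5.41 (n = 4) in INT, 20.5 ± 2.93 (n = 4) in SVX, 23.4 ± 3.61 (n = 4) in SVX_VAS and 7.69 ± 9.82 (n = 4) in VAS. Without VAS 2 and VAS 3 the VAS mean of Mdfic2 was 14.2 ± 11.0 CPM (SD, n = 2). For Gm32592 they were 0.139 ± 0.0798 CPM in CONT, 33.6 ± 11.9 in INT, 44.0 ± 7.55 in SVX, 49.8 ± 3.12 in SVX_VAS and 30.8 ± 12.9 in VAS, or 28.5 ± 21.5 without VAS 2 and VAS 3. Both genes had the same order of means, SVX_VAS, SVX, INT, VAS and CONT from highest to lowest. Neighbours in this order overlapped in their libraries except for VAS against CONT. Against CONT the ratio of summed counts was 396 in SVX, 457 in SVX_VAS and 123 in VAS for Mdfic2, and 364, 414 and 251 for Gm32592. Without VAS 2 and VAS 3 the VAS ratio was 256 for Mdfic2 (exact 95% interval 87.1 to 1248) and 222 for Gm32592 (107 to 553).

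**Figure D2:**
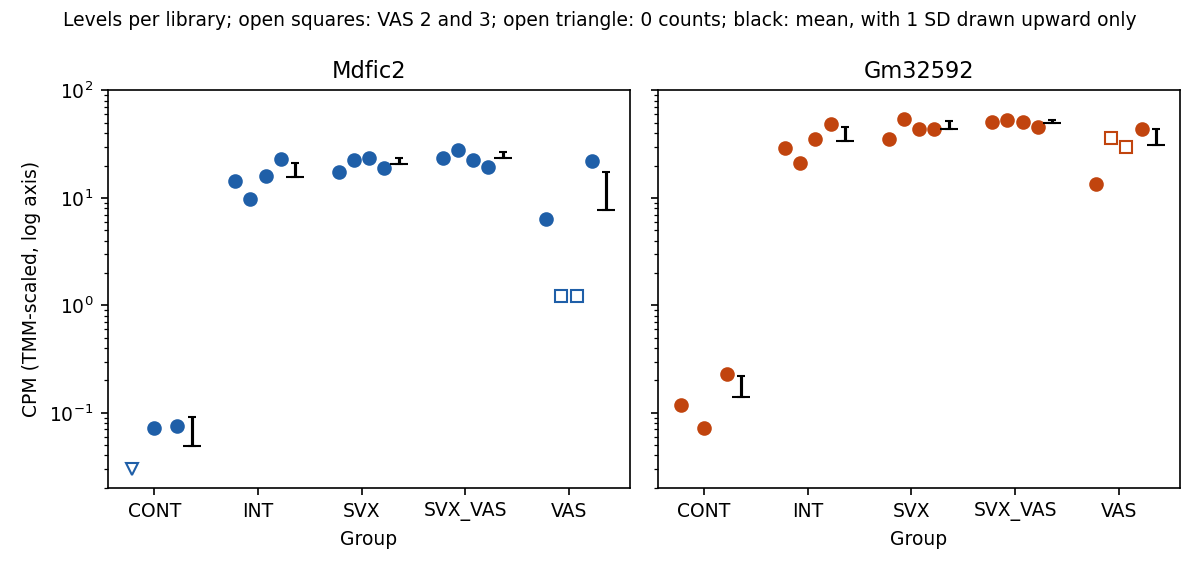
Level of each gene in each library (TMM-scaled CPM, log axis) for the 5 groups, with the mean and 1 SD upward in black beside each group. The CONT libraries lie below 0.3 CPM for both genes, and VAS 2 and VAS 3 (open squares) lie at 1.21 and 1.22 CPM for Mdfic2 but at 36.1 and 30.0 CPM for Gm32592.

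Per kilobase of exon, which allows the levels of the genes to be compared, Gm32592 was the more abundant in all mated groups. Its mean level in INT was 10.8 CPM per kb, above 62.0% of the 17222 tested genes, while Mdfic2 at 4.41 CPM per kb was above 31.6% of them. In SVX_VAS, where both means were highest, the levels were 15.9 CPM per kb (above 76.1%) and 6.52 CPM per kb (above 44.8%). At estrus the levels were 0.0446 and 0.0137 CPM per kb, above 0.383% and 0.105% of the tested genes. The pair passed the expression filter of the tested genes only through the mated libraries. The low ranks at estrus thus follow from that filter and from the choice of the pair. The median of all tested genes was 7.66 CPM per kb in INT and 7.51 in CONT.

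The groups mated with other than intact males were compared in the edgeR quasi-likelihood fit of all libraries, with the Benjamini-Hochberg FDR over all 17222 genes and a call at an FDR of 0.05 or less and at least 1.5-fold. Neither gene was called in any of the 3 comparisons, and of all tested genes the percentage called was 0 in SVX_VAS minus SVX, 0 in VAS minus SVX and 0 in VAS minus SVX_VAS, although 240, 2651 and 2520 genes had an unadjusted p under 0.05 and DESeq2 called 0, 1 and 27 genes. Limma-voom called 0, 1656 and 1804 genes. The percentages called were also 0 without VAS 2 and VAS 3, with 391, 691 and 959 genes at an unadjusted p under 0.05 in edgeR, and DESeq2 and limma-voom called 0 genes in each comparison.

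Between SVX_VAS and SVX the logFC was 0.19 (standard error 0.63) for Mdfic2 and 0.18 (0.29) for Gm32592, each with an edgeR FDR of 1.0. The logFC of Mdfic2 was 0.19 with a standard error of 0.31 without VAS 2 and VAS 3 and of 0.14 with only the SVX and SVX_VAS libraries (FDR 0.850 in edgeR), and that of Gm32592 was 0.18 with standard errors of 0.29 and 0.12. Between VAS and SVX it was -1.43 (0.65, FDR 0.320 in edgeR) for Mdfic2 and -0.52 (0.29, FDR 0.372) for Gm32592. Between VAS and SVX_VAS it was -1.62 (0.65, FDR 0.298 in edgeR) for Mdfic2 and -0.69 (0.29, FDR 0.310) for Gm32592. Without VAS 2 and VAS 3, the differences of Mdfic2 were -0.54 and -0.74 (standard error 0.39 each) and those of Gm32592 -0.63 and -0.81 (0.37 each), none of them called in edgeR. Limma-voom called Mdfic2 lower in VAS than in SVX (logFC -2.73, FDR 0.0184) and than in SVX_VAS (-2.93, FDR 0.0164). Limma-voom no longer called it without VAS 2 and VAS 3 (-0.84, FDR 0.703 and -1.04, FDR 0.745). Leaving out VAS 4, the VAS library with the highest Mdfic2, edgeR also called it (-2.82, FDR 0.0104 and -3.00, FDR 0.00948), and VAS 2 and VAS 3 are then 2 of the 3 VAS libraries.

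Within a library, the pair held to a near-fixed ratio. In the 14 mated libraries other than VAS 2 and VAS 3, Mdfic2 took 29.3% (SVX 2) to 35.2% (SVX 3) of the counts of the pair, with a median of 31.9%. Per kilobase of exon, Mdfic2 stood at a median of 0.408 times the level of Gm32592. Over these 14 libraries the log2 ratio of the counts had an SD of 0.115, where counting error alone gives 0.111, while the log2 CPM of the genes themselves had SDs of 0.568 and 0.573. No other tested gene held a steadier ratio to Mdfic2 than Gm32592, or to Gm32592 than Mdfic2, among 17221 genes. The next steadiest ratio to Mdfic2 had an SD of 0.148, and the median gene one of 0.592. At estrus the pair had 3 and 7 counts in all 3 libraries together, too few for a ratio.

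**Figure D3:**
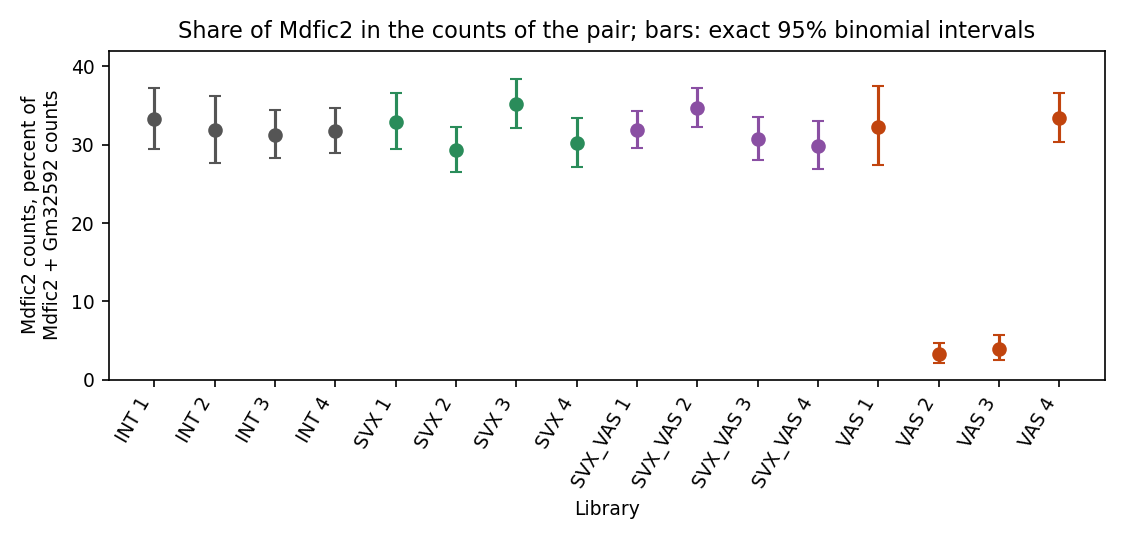
Mdfic2 counts as a percentage of the counts of both genes in the 16 mated libraries, with exact 95% binomial intervals for counting error alone. The share lies between 29.3% and 35.2% in 14 libraries and at 3.25% and 3.92% in VAS 2 and VAS 3.

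In VAS 2 and VAS 3 the share of Mdfic2 was 3.25% (exact 95% interval 2.13 to 4.73) and 3.92% (2.57 to 5.68). Both had 26 counts of Mdfic2 beside 774 and 638 counts of Gm32592. At the median share of the other mated libraries, 362 and 299 counts of Mdfic2 would have stood beside that much Gm32592. The intervals of VAS 2 and VAS 3 did not reach those of any other mated library. Against the median of the 14 other mated libraries, Mdfic2 was lower by 15.5-fold in VAS 2 and 15.4-fold in VAS 3, and Gm32592 by 1.21-fold and 1.45-fold. These folds come from log2 CPM with 2 counts added as a prior, which shrinks a fold at 26 counts. Without the prior, Mdfic2 stood at 1.21 and 1.22 CPM, against a median of 20.7 CPM in the 14 libraries. As a comparison of groups, the mean log2 ratio was -1.10 ± 0.138 (SD, n = 4) in SVX_VAS, -1.09 ± 0.177 in SVX and -2.88 ± 2.14 in VAS, and no pair of groups differed in the exact permutation test.

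The difference in the log2 ratio was -0.0066 between SVX_VAS and SVX (exact permutation test, two-sided p = 0.971, 0.971 after Benjamini-Hochberg adjustment over the 3 pairs). It was -1.79 between VAS and SVX (exact permutation p = 0.314, adjusted 0.514) and -1.78 between VAS and SVX_VAS (exact permutation p = 0.343, adjusted 0.514). The smallest p that 4 libraries against 4 allow is 0.0286. The last 2 differences were 0.065 and 0.072 without VAS 2 and VAS 3.

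The share of genes that were low in VAS 2 and VAS 3 differed with the exon bases they share with an opposite-strand gene. Of all 17222 tested genes, 10.3% were at least 4-fold lower in both libraries than the median of the other mated libraries. Of the 11882 tested genes without such bases, 4.99% were so low. The share was 7.96% of the genes with up to 10% of their exonic bases shared, 29.5% of those with over 10 to 50%, 64.5% of those with over 50 to under 100% and 89.1% of the 147 genes with 100%. Mdfic2, with 6.19% of its exonic bases shared, was one of 65 genes so low among the 2479 protein-coding genes that share up to 10% (2.62%), and Gm32592, with 7.11%, was not low. In VAS 2 and VAS 3, 7.26% and 7.08% of all tested genes lay further below the other mated libraries than Mdfic2 did. Whether the low Mdfic2 counts of VAS 2 and VAS 3 come from the RNA or from the making or counting of these libraries was not tested.

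**Figure D4:**
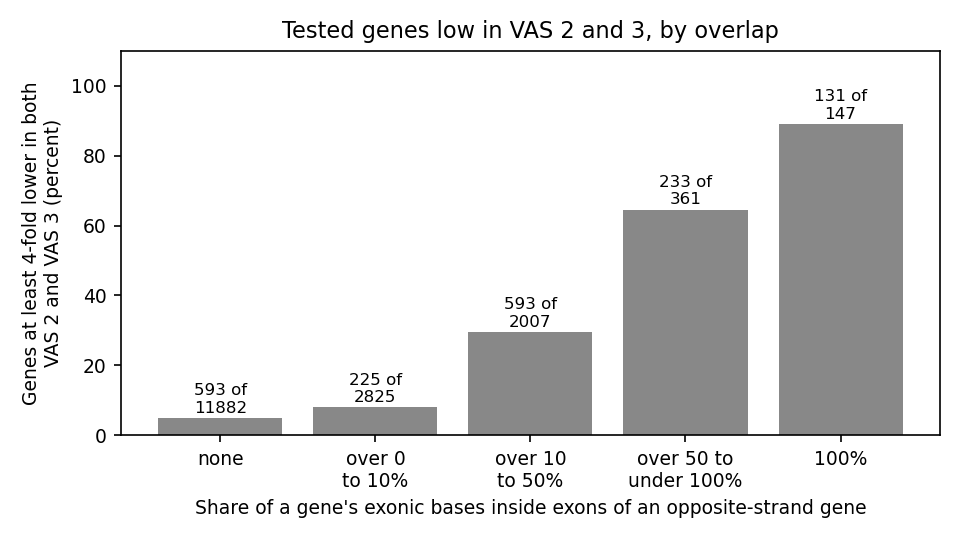
Percentage of tested genes at least 4-fold lower in both VAS 2 and VAS 3 than the median of the 14 other mated libraries, by the share of a gene's exonic bases inside exons of an opposite-strand gene, with the number of genes above each bar. The percentage goes from 4.99% without shared bases to 89.1% at 100%, and Mdfic2 (6.19% shared) belongs to the second bar.

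In the 1 relation across samples that was tested, over the 14 mated libraries other than VAS 2 and VAS 3, the log2 CPM of Mdfic2 and Gm32592 rose and fell together, with Pearson's r = 0.980 (permutation p = 2e-05, the smallest that 100000 resamples can give here) and Spearman's rho = 0.807 (permutation p = 0.0009). Without INT 2 and VAS 1, the libraries farthest from the median of Mdfic2, r was 0.895 (permutation p = 0.00018) and rho 0.692 (permutation p = 0.0155). With the group means subtracted r was 0.968. The 14 libraries include INT 1 to 4, whose levels helped to choose the pair, so the p-values above are descriptive only. The correlation without the INT libraries was not tested. INT 1 to 4 and VAS 1 and 4 had wide spreads, whereas the 4 SVX_VAS libraries of Gm32592 lay within 45.4 to 52.8 CPM. Over all 16 mated libraries r was 0.491, given with no test because VAS 2 and VAS 3 form a cluster of their own.

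**Figure D5:**
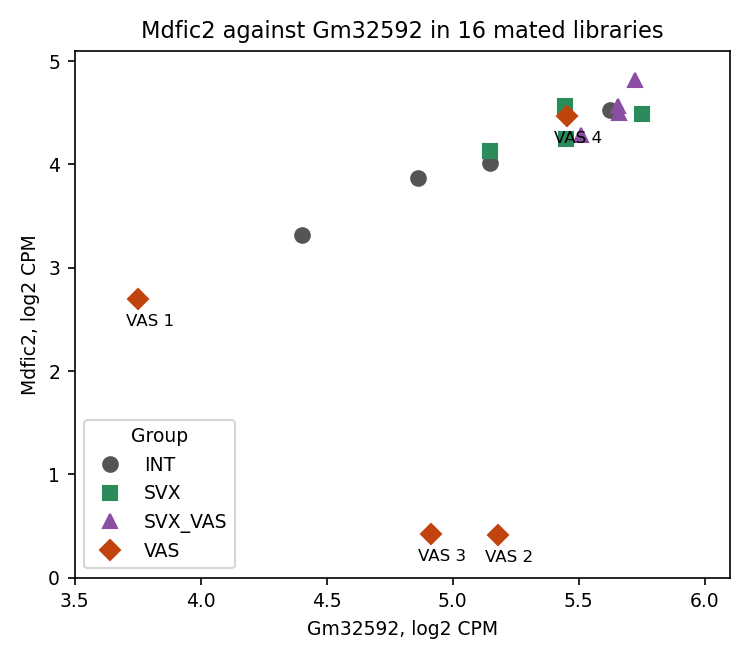
Mdfic2 against Gm32592 in the 16 mated libraries, both as log2 CPM, with a symbol for each group. The other 14 libraries lie along 1 line from VAS 1 at the lower left to SVX_VAS at the upper right, and VAS 2 and VAS 3 lie below it at a log2 CPM of 0.42 and 0.43 for Mdfic2.

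The 3 lowest levels of both genes among these 14 libraries were in VAS 1, INT 2 and INT 1. The 8 luminal epithelium markers, all with counts, summed to 2124, 1935 and 2288 CPM in VAS 1, INT 2 and INT 1, the highest sums of the 14 libraries, against 630 to 1866 CPM in the other 11 and 3301 to 4500 CPM in CONT. SVX_VAS 2, with 1866 CPM of these markers, had the highest level of Mdfic2. The 8 stroma markers, all with counts, summed to 6187 to 8462 CPM in the 14 libraries, 4808 to 5057 CPM in CONT, and 1746 and 1860 CPM in VAS 2 and VAS 3. The 6 smooth muscle markers, all with counts, summed to 320 to 727 CPM in CONT and 287 to 1283 CPM in the mated libraries, although the myometrium had been discarded. The 12 progesterone response genes, all with counts, summed to 852 to 1013 CPM in CONT, 1404, 1430, 1465 and 1492 CPM in SVX_VAS 2, INT 1, VAS 1 and INT 2, 1638 to 1855 CPM in the other 10 of the 14 libraries, and 1006 and 1066 CPM in VAS 2 and VAS 3. The 8 estrogen response genes, all with counts, summed to 9435 to 12000.3 CPM in CONT, 8586, 3510 and 3050 CPM in INT 1, INT 2 and VAS 1, 9200 CPM in SVX_VAS 2, 1262 to 2062 CPM in the other 10 of the 14 libraries, and 1335 and 1022 CPM in VAS 2 and VAS 3. So INT 1, INT 2 and VAS 1, where the pair was lowest, and SVX_VAS 2, where Mdfic2 was highest, had the 4 highest estrogen response sums after mating and the 4 lowest progesterone response sums of the 14 libraries. The 5 neutrophil markers, all with counts, summed to 53.3 and 67.3 CPM in VAS 2 and VAS 3 and 6.84 to 21.6 CPM in the other 17 libraries. The 5 red blood cell markers, all with counts, summed to 27.2 to 39.2 CPM in CONT. They summed to 32.5 and 33.6 CPM in VAS 2 and VAS 3 and 55.2 to 105 CPM in the 14 libraries. The 5 mesothelium and fat markers, all with counts, summed to 25.1 to 26.9 CPM in CONT. In the mated libraries they summed to 10.7 to 30.2 CPM, lowest in VAS 1 and highest in VAS 3. The 6 endothelium markers, all with counts, summed to 187 to 277 CPM in CONT and 543 to 1035 CPM in the mated libraries, with 543, 640 and 709 CPM in VAS 1, INT 1 and INT 2. The 6 T and NK cell markers, all with counts, summed to 7.85 to 25.3 CPM in CONT and 33.7 to 92.0 CPM in the mated libraries, with 33.7, 46.6 and 53.0 CPM in VAS 1, INT 1 and INT 2. The 5 proliferation genes, all with counts, summed to 1055 to 1805 CPM in CONT and 528 to 1633 CPM in the mated libraries, highest in VAS 1 and lowest in VAS 2. The 7 gland markers, all with counts, summed to 108 to 115 CPM in CONT and 103 to 563 CPM in the mated libraries, with 103, 129 and 176 CPM in VAS 1, INT 2 and INT 1, the lowest of the 14 libraries being VAS 1 and INT 2. The 5 macrophage markers, all with counts, summed to 114 to 185 CPM in CONT and 171 to 269.5 CPM in the mated libraries, with 171, 174 and 221 CPM in VAS 1, INT 2 and INT 1, again lowest in VAS 1 and INT 2. The 5 blastocyst markers summed to 1.37 to 2.91 CPM in CONT and 4.92 to 10.95 CPM in INT. They summed to 7.09 to 9.89 CPM in SVX, 5.30 to 7.12 CPM in SVX_VAS and 5.30 to 11.5 CPM in VAS. The highest sum was in VAS 3 and the lowest after mating in INT 1, and whether these counts came from embryos was not tested. The 4 sperm markers summed to at most 0.395 CPM in CONT and 1.18 CPM in the mated libraries. The part of cell composition or hormone response in the levels of the pair was not tested.

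The genes most like the pair were ranked by Pearson's r of log2 CPM over the same 14 libraries, as a description. Gm32592 was first of 17221 genes for Mdfic2, and Mdfic2 was the third for Gm32592 after Lrrc7 (r = 0.987), a scaffold protein of synapses, and Timp4 (r = 0.981), an inhibitor of matrix metalloproteinases. The other 9 for Mdfic2 were Aldh6a1, Lrrc7, Timp4, Gm18325, Rbl2, Syn2, Cyp3a57, Ryr3 and Kcnv2 (r between 0.962 and 0.971). The other 7 for Gm32592 were Ceacam2, Ryr3, Syn2, Slc2a3, Cutal, Hnf1aos1 and E230016K23Rik (r between 0.969 and 0.977). Lrrc7, Timp4, Syn2 and Ryr3 were in both lists. With VAS 2 and VAS 3 included, Gm32592 ranked 5089 for Mdfic2 and Mdfic2 ranked 2734 for Gm32592, so the likeness of the pair holds for the 14 libraries without them.

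All 14 of these genes had a lower mean in CONT than in the 14 mated libraries, and 10 of them had a CONT mean under 4 CPM. Of all 17222 tested genes, 49.3% had a lower mean in CONT than in these libraries and 15.9% had a CONT mean under 4 CPM. Hnf1aos1 (0.0636 CPM), Gm18325 (0.230 CPM), Kcnv2 (0.367 CPM) and Ceacam2 (0.932 CPM) were among the lowest in CONT. Lrrc7 had a mean of 0.530 CPM in CONT and 20.3 CPM in the 14 mated libraries, and Timp4 1.19 and 25.2 CPM. Slc2a3, a glucose transporter (16.2 and 380 CPM), Ryr3 (13.1 and 104 CPM), Aldh6a1 (54.4 and 90.2 CPM) and Rbl2 (109 and 136 CPM) had higher levels at estrus. Timp4 lies within the span of Syn2 on the opposite strand, sharing 90 exonic bases, and had 0 and 0.141 CPM in VAS 2 and VAS 3, where Syn2 had 75.3 and 59.7 CPM beside a mean of 74.7 CPM in the 14 libraries. Gm18325, a pseudogene that shares no such bases, was at 0 CPM in both VAS 2 and VAS 3.

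The sequences before the RefSeq starts of the genes are shown because the levels of the genes moved together. RefSeq (GRCm38.p6) lists both, with Mdfic2 as Gm765, and the 250 bases upstream of each start were taken. The RefSeq start of Mdfic2 is that of GENCODE, and the window is chr6:98342755-98343004 on the minus strand. The RefSeq start of Gm32592 is the start of GENCODE exon 3, so its window, chr6:98224267-98224516 on the plus strand, lies in a GENCODE intron. It ends directly before that exon, whereas the GENCODE start of the gene is at chr6:98121796. Capitals mark TGTTCT, a half-site known for the progesterone, glucocorticoid and androgen receptors.
Mdfic2 upstream: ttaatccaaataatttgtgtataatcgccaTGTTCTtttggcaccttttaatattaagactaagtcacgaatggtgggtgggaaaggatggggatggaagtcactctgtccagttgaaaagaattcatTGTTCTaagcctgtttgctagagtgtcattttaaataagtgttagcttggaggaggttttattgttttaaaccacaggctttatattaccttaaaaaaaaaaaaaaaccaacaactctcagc
Gm32592 upstream: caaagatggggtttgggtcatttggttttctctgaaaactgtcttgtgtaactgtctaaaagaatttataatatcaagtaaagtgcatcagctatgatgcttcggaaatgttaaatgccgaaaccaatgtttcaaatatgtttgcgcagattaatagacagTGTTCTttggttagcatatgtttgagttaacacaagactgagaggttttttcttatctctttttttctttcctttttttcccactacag

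TGTTCT, searched on both strands, began at -220 and -122 bases from the RefSeq start of Mdfic2 and at -89 from that of Gm32592. All positions for Gm32592 count from GENCODE exon 3. In GENCODE they are intron positions and not positions before the gene start. Of 32851 RefSeq windows of the same length, 16.1% held it at least once and 1.81% at least 2 times. The estrogen receptor half-site GGTCA occurred once before Gm32592 (at -235, with 35.2% of windows holding it) and was not in the Mdfic2 window. The E-box CANNTG, which MyoD group factors bind, began at -140 before Mdfic2 and at -232 and -75 before Gm32592, the one at -232 overlapping GGTCA, and 66.2% of windows held at least 1 and 31.8% at least 2. The windows had a GC content of 34.8% and 34.0%, below the median of 52.4% of all windows. The motifs were chosen with the sequences in view, and a match is not a binding site.

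The family and the partners of I-mfa proteins were described from a list of 18 genes, in the comparison of INT with CONT, in which 33.6% of all tested genes were called (3595 higher and 2185 lower in INT, 5780 in all, against 6545 without VAS 2 and VAS 3). Of the 18 genes, 9 were tested, 3 were higher, 1 was lower and 5 were not called. The median logFC of the 9 was -0.13, beside -0.01 for all tested genes, so the 4 called of 9 stand beside a background of 33.6%. None of the 9 was called in the other 3 comparisons.

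Within the family, Mdfi fell from 18.2 ± 2.21 CPM (SD, n = 3) in CONT to 8.95 ± 2.98 CPM (SD, n = 4) in INT (logFC -1.02, standard error 0.28, FDR 0.00719 in edgeR). Mdfic stood at 55.5 ± 7.62 and 50.9 ± 4.15 CPM and was not called (logFC -0.13, FDR 0.382 in edgeR). In the 4 mated groups Mdfic ranged from 41.9 to 55.7 CPM in the 14 libraries and was at 60.1 and 60.6 CPM in VAS 2 and VAS 3, the highest levels of any mated library.

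Of the partners, Lef1, a transcription factor of the Wnt pathway, rose from 4.0 ± 1.69 CPM in CONT to 90.7 ± 36.7 CPM in INT (logFC 4.48, standard error 0.45, FDR 3.32e-06 in edgeR). Tcf7l1, of the same family, rose from 7.29 ± 0.869 to 13.1 ± 4.02 CPM (logFC 0.85, FDR 0.00547 in edgeR), and Piezo2, a mechanosensitive channel, from 44.4 ± 8.14 to 133 ± 32.0 CPM (logFC 1.58, FDR 4.79e-05). Piezo1, Ccnt1 (cyclin T1), Cdk9 (its kinase) and Axin1 were not called, with logFC of -0.24, -0.25, -0.21 and -0.11 and edgeR FDRs of 0.0216, 0.00813, 0.0722 and 0.196, so that Piezo1 and Ccnt1 passed the FDR and missed the 1.5-fold limit. Of the myogenic factors, Myod1 had 0 counts in every library, and Myf5, Myf6 and Myog had at most 2 counts in any library. Zic1, Zic2 and Hand1 had at most 1 count, and Ascl2, at most 28 counts, was also below the filter. The myogenic partners of the family were thus at or under the limit of 3 counts in libraries where Mdfic2 stood at 9.83 CPM or more.

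Genes annotated within 1 Mb of the pair numbered 23, of which 12 were tested between INT and CONT, 1 was higher and 3 were lower, beside the 33.6% called of all tested genes. Eogt, a glycosyltransferase of the endoplasmic reticulum, was higher in INT (28.6 ± 2.71 to 78.7 ± 16.2 CPM, logFC 1.46, FDR 5.29e-06 in edgeR). Lower were Frmd4b (logFC -0.65, FDR 6.01e-06 in edgeR), Mitf, a transcription factor of melanocytes and other cells (-0.69, FDR 0.0108), and Tmf1 (-0.59, FDR 0.00104). Tmf1 lay at the 1.5-fold limit and was not called in 9 of the alternatives (logFC -0.58 to -0.52), and Mitf was not called without CONT 4 or INT 1 (-0.58 each). Foxp1, a transcription factor gene past the start of Mdfic2, stood at 136 ± 6.86 and 149 ± 15.7 CPM and was not called (logFC 0.14), nor were Uba3, Arl6ip5, Gm20696, Gm44065, Gm19653, Gm25852 and Gm44102.

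The median logFC of these 12 neighbours was -0.12, beside -0.01 for all tested genes, and none was called in the other 3 comparisons. Without VAS 2 and VAS 3 in the fit, Gm19653 (logFC -0.84, FDR 0.00830 in edgeR) and Gm44102 (0.84, FDR 0.0290) were also called. Gm44065, which shares 416 exonic bases with Eogt on the opposite strand, had 5.81 to 7.91 CPM in the 14 libraries and 0.373 and 0 CPM in VAS 2 and VAS 3, while Eogt was at 69.9 and 77.4 CPM there. The nearest tested neighbours, Mitf on the side of Gm32592 and Foxp1 on the side of Mdfic2, were present at estrus at 47.5 and 136 CPM, where the pair had under 0.3 CPM.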

How the data were processed

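Endometrial RNA of 19 pooled samples was analysed. According to the study's methods, total RNA libraries were made with a TruSeq Stranded kit and sequenced from both ends, and adapters were trimmed before the authors aligned the reads to GRCm38 with STAR and tallied them with featureCounts. What was deposited is a table of raw, unnormalized counts for 49089 genes, and the strand setting is not given in the sources used here. Intervals on counts cover counting error only. Of these genes, 48349 had a symbol and a type in GENCODE M21. Gene types, exons and transcript sequences came from that release and upstream sequences from RefSeq (GRCm38.p6).

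After a filter of 3 CPM or more in 3 or more libraries, 17222 genes entered an edgeR 4.0.16 quasi-likelihood fit in R 4.3.3 with TMM factors, all 5 groups and no replicate block, tested beforehand on simulated data. Values per library are TMM-scaled CPM, put on the log2 scale with 2 counts added as a prior. The log2 ratio of the pair used a pseudocount of 0.5. Exact permutation tests and Clopper-Pearson intervals were computed with scipy 1.17.1. Totals were 12661266 to 31781270 counts per library. Alternatives were DESeq2 1.42.0 and its size factors, limma-voom (limma 3.58.1), other filters, only the groups compared, a replicate block, each library left out in turn, VAS replicates 2 and 3 left out (with each of the 3 tools), and a pseudocount of 2.

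Named genes were the pair, the I-mfa list, all genes within 1 Mb, and the 10 tested genes most correlated with each member over 14 mated libraries. The members and lists were chosen with earlier results of these data known. Proteins were not analysed here, and 1 gene of the I-mfa list is not reported by name. Checks for a library far from the other 3 in the 12 groups of 4 libraries searched, with Dixon's ratio, found 0.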

Additional observations from a re-analysis of the deposited data

How the results depend on the processing

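In SVX_VAS minus SVX neither gene was called under any alternative run. With limma-voom the logFC of Mdfic2 was -2.73 in VAS minus SVX and -2.93 in VAS minus SVX_VAS, both called, and 1656 and 1804 genes were called. DESeq2 called 1 and 27 genes. Without VAS 2 and VAS 3, a setting chosen after seeing the data for these tools, limma-voom and DESeq2 called 0 genes in both. With 1 library left out in turn, the logFC of Mdfic2 lay between -2.82 and -1.07 in VAS minus SVX and between -3.00 and -1.26 in VAS minus SVX_VAS, and 0 to 683 and 0 to 573 genes were called, all of them without VAS 4. Gm32592 was not called under any alternative run, with a logFC between -0.89 and -0.27 and between -1.09 and -0.44 in these comparisons. The cause of the differences between tools was not tested.

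Without VAS 2 and VAS 3 the difference in the log2 ratio of the pair turned from -1.79 to 0.065 in VAS minus SVX and from -1.78 to 0.072 in VAS minus SVX_VAS, since the low ratios are those of these libraries. With 1 library left out it lay between -2.41 and -1.12 in both, and in SVX_VAS minus SVX between -0.070 and 0.065. A pseudocount of 2 changed no direction, and no mated library had under 10 counts of the pair. Uba3 in INT minus CONT was 0.0093 without VAS 2 and VAS 3 (0.0088 with limma-voom) and -0.046 to 0.031 with 1 library left out, against -0.013 with all libraries. For INT minus CONT, 4913 to 6260 genes were called with 1 library left out, and 5594 to 7091 under the other alternatives, the most with no filter (7091) and with edgeR's filterByExpr (7081).

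Replicate numbers did not pair the samples: same-numbered libraries of the mated groups correlated in their deviations from the group means at r between -0.46 and 0.36 (12 pairs), other numbers between -0.51 and 0.49 (36 pairs). With a replicate block, Mdfic2 was at -1.92 and -2.12 in the comparisons of VAS, neither gene was called, and 5594 genes were called in INT minus CONT against 5780. At estrus the genes had 3 and 7 counts in all, which limits the precision of any ratio to CONT.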
